A study of Mus musculus with 32 samples.

Results

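The large olfactory receptor cluster of mouse chromosome 2 was examined for 2 histone marks of the Polycomb system in oocytes from just before birth to the start of growth. Its members were the protein-coding genes whose RefSeq symbol starts with Olfr and whose start lies on chromosome 2 between 85000000 and 90500000 of GRCm38. This rule gave 222 genes out of 21887 protein-coding genes, which is 20.0% of the 1110 protein-coding Olfr genes. They run from Olfr987 to Olfr1274 over 5.07 Mb (chr2:85330967-90401674), and 71 Olfr pseudogenes and 3 other protein-coding genes (Fads2b, Pramel7 and Pramel6) lie among them.

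Olfactory receptors are G protein-coupled receptors that detect odorants in the nose. Each olfactory sensory neuron expresses a single receptor allele, while the other receptor genes are held in heterochromatin marked by H3K9 and H4K20 methylation. Polycomb repressive complex 2 (PRC2, with the core subunit EED) sets H3K27me3, and Polycomb repressive complex 1 (PRC1, with the ubiquitin ligases RING1 and RNF2) sets H2AK119ub. Both marks are typical of silent developmental genes with CpG-rich promoters.

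The data were CUT&Tag profiles, in which an antibody directs the transposase Tn5 to chromatin that carries a mark. There were 32 samples of oocytes from mouse ovaries, in 16 groups of 2, with 10 groups for H3K27me3 and 6 for H2AK119ub. One deposited peak list stood for each group, so no difference below has a replicate check or a p-value. The wild-type (WT) oocytes were taken before birth (stage E18.5) and on postnatal days 1 (P1), 6 (P6, non-growing) and 7 (P7, growing), each with both marks. PRC2ctrl (EedF/+ with Ddx4-Cre) and PRC2cKO (EedF/- with Ddx4-Cre) were non-growing P6 oocytes with both marks. PRC1ctrl (Ring1-/- with Rnf2F/+ and Ddx4-Cre) and PRC1cKO were P6 non-growing and P7 growing oocytes, with H3K27me3 only. The PRC1cKO label reads Ring1-/- with Ring1F/- and Ddx4-Cre, naming Ring1 where the control has Rnf2, so which gene was floxed in that group is uncertain. Ddx4-Cre is active in germ cells, both the controls and the knockouts carry it, and the PRC1 control itself lacks Ring1. The labels do not say whether the 2 samples of a group came from separate animals.

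The lists had 49615 to 83994 peaks each, over 244.2 to 728.3 Mb in total, and read depth is unknown from them. The window of a gene was its span plus 1 kb to each side, and the gene counted as marked where any peak overlapped the window by 1 bp or more. Intervals are exact Clopper-Pearson 95% intervals, which cover counting error only, and neighbouring genes are not independent. Peaks do not measure expression, so the cell type could be checked only loosely. Granulosa and stroma markers carried H3K27me3 at 11 to 12 of 12 genes in every list, and oocyte markers at 2 (14.3%, PRC1ctrl P7) to 8 (57.1%, WT E18.5) of 14, where 41.3% to 49.6% of all genes carried it. H2AK119ub was called at 12 of 12 of the former in every list and at 7 to 14 of 14 of the latter, where 56.0% to 74.3% of all genes carried it. Blood and endothelium markers carried H3K27me3 at 6 to 9 of 9 genes and H2AK119ub at 6 to 8 of 9. The median window was 42.0 kb for granulosa and stroma markers, 9.83 kb for oocyte markers and 44.9 kb for blood and endothelium markers. It was 19.2 kb for all genes, and the part of window length in these counts was not tested.

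Promoter sequences of some of these genes are shown first, because most members of the cluster were free of both marks and only a few were marked in many lists. The RefSeq table (GRCm38.p6, 250 bases before to 50 after each start) held 187 promoters of 186 members, and 36 members had no entry, Olfr1033 among them. Capitals mark CG dinucleotides and the homeodomain-type letters TAATTA and TAATGA on either strand. The promoter of Olfr1274, the last member, is chr2:90400390-90400689 (plus strand), and both it and the gene's window carried H3K27me3 in all 10 lists. That of Olfr1565 is chr2:90321972-90322271 (plus strand), with the window marked in 10 lists and the promoter in 8. For Olfr1009, at chr2:85721157-85721456 (plus strand), these counts were 7 and 6. The window of Olfr1055 carried H2AK119ub in 4 of 6 lists, but its promoter, chr2:86347715-86348014 (minus strand), in none. Olfr994 (promoter chr2:85430778-85431077 (minus strand)) was the first member along the chromosome with an entry and no mark in any list.
Olfr1274: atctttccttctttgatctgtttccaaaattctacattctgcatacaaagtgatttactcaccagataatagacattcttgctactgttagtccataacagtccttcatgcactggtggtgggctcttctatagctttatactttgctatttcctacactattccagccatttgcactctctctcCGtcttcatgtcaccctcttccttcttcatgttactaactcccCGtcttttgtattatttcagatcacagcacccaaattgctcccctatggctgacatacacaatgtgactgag
Olfr1565: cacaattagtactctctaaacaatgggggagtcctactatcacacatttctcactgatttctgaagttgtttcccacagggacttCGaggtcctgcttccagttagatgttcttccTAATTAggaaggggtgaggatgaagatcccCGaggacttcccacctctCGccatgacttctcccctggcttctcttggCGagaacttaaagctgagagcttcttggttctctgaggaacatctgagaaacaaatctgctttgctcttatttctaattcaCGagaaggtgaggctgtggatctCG
Olfr1009: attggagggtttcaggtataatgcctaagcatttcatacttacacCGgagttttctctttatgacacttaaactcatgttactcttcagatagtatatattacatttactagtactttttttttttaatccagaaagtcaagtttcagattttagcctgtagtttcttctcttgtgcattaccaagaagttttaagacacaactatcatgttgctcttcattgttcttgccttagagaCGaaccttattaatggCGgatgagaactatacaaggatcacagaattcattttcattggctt
Olfr1055: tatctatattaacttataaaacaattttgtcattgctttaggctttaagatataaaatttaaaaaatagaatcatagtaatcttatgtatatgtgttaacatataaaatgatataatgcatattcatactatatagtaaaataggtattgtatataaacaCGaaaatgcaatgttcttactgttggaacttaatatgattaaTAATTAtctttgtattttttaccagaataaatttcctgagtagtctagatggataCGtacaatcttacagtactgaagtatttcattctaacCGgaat
Olfr994: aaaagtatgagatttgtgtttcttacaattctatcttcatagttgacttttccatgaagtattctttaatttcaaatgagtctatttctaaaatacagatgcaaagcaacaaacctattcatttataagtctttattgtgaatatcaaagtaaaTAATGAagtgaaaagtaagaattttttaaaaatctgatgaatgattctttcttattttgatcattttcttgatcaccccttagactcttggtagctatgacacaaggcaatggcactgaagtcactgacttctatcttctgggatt

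Members' promoters were poor in GC and in CG dinucleotides. Their median GC content was 32.0%, against 52.7% over all 32851 promoters, and their median number of CG dinucleotides was 1 against 7. No CG was present in 35.8% of members' promoters and in 5.43% of all promoters. TAATTA stood in 24.6% of members' promoters (5.29% of all) and TAATGA in 27.8% (9.78% of all), both strands searched. Most of these traits were shared by the 761 promoters of other Olfr genes. Their median GC content was 36.7% and their median number of CG dinucleotides 1, with no CG in 32.7%. TAATTA stood in 17.1% of them and TAATGA in 29.0%. The Olf/Ebf-type motif, TCCC and GGGA with any 2 bases between them, was in 0 of 187 members' promoters and in 0.904% of all, which says only that these letters were not in this window. The 10 promoters of members marked by H3K27me3 in 6 or more lists had a median GC content of 34.8% and 2 CG dinucleotides, beside 31.3% and 1 for the 154 promoters of members without it. Those of Olfr992, Olfr1258 and Olfr32 are among the 10, though no list had an H3K27me3 peak over the promoter itself. The 10 also count the sequence shared by Olfr1506 and Olfr1565 (46.7% GC, 6 CG dinucleotides) once for each gene. Among all pairs of members' promoters, only Olfr1506 and Olfr1565 were at least 90% identical, and theirs were identical over the 300 bases. Both genes are 7077 bp long and lie on opposite strands about 0.1 Mb apart, so reads from identical stretches cannot be assigned to either copy by sequence, and no source used here says how such reads were handled.

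The cluster was covered less than the genome in all 16 lists. H3K27me3 peaks covered between 2.71% (WT P7) and 10.2% (PRC2cKO P6) of its bases, while they covered 15.9% to 23.0% of the genome between the first and last protein-coding gene of each chromosome. H2AK119ub peaks covered between 0.377% (PRC2cKO) and 1.56% (WT P7) of the cluster and between 9.05% and 27.0% of the genome. The genome's share was 1.56 to 8.49 times the cluster's for H3K27me3 and 5.80 to 39.3 times for H2AK119ub, so the marks overlapped on this ratio. Coverage was higher outside the cluster on both sides: the 1 Mb before it was covered at 19.2% to 36.9% by H3K27me3 and the 1 Mb after it at 10.9% to 21.6%, and in all 16 lists both flanks were above the cluster.

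**Figure D1:**
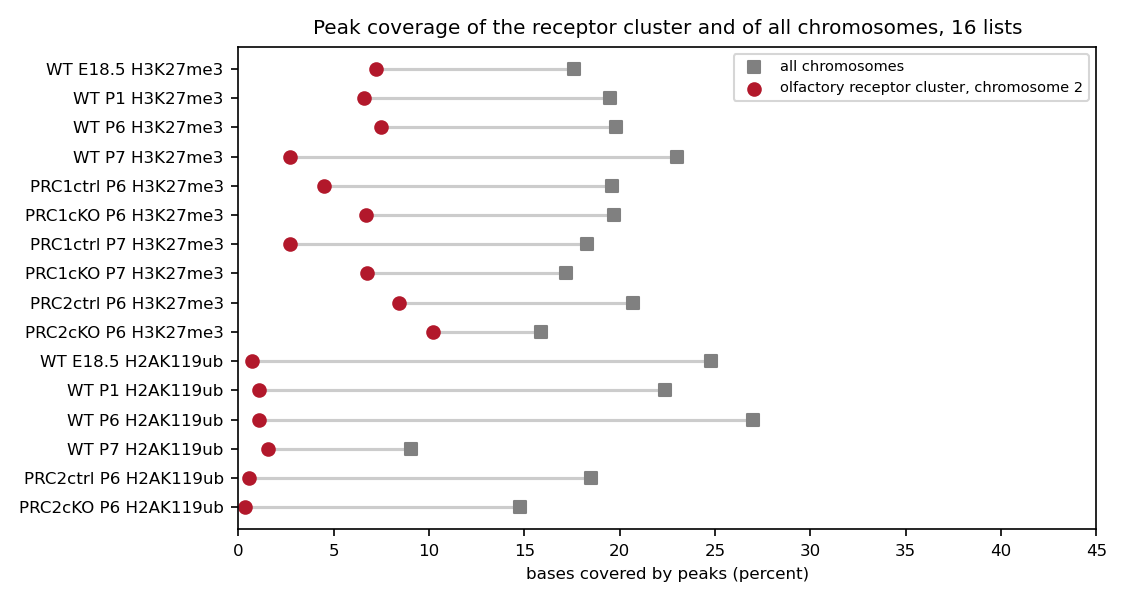
Percent of bases covered by peaks (x axis) in each of the 16 lists (rows), in the receptor cluster (red circles) and over all chromosomes (grey squares). The circle lies left of the square in every list, at 2.71% to 10.2% for H3K27me3 and at 0.377% to 1.56% for H2AK119ub.

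Within the cluster the receptor genes themselves were covered less than the sequence between them. Windows of the members make up 15.8% of the cluster. In WT P6 oocytes H3K27me3 covered 5.16% of the windows and 7.93% of the rest of the cluster, in WT P7 oocytes 0.91% and 3.05%, and the windows had the lower share in all 16 lists. By the authors' total signal, the median H3K27me3 peak of the cluster ranked between the 25.1 and 41.8 percentile of its own list, and the median H2AK119ub peak between 19.3 and 50.9. Cluster peaks were narrower in the median than all peaks of their list, and by mean signal per base the H2AK119ub medians ranked between 27.2 and 70.2.

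Few members were marked by H3K27me3 at any stage. In WT oocytes 17 of 222 were marked at E18.5 (7.66%, interval 4.52 to 12.0, where 45.8% of all protein-coding genes were marked). At P1 the count was 13 (5.86%, all genes 45.5%), at P6 it was 21 (9.46%, all genes 47.5%) and at P7 it was 3 (1.35%, interval 0.28 to 3.90, all genes 49.6%). PRC1ctrl had 9 marked members at P6 (4.05%, all genes 46.0%) and 9 at P7 (all genes 44.4%). PRC1cKO had 12 at P6 (5.41%, all genes 45.5%) and 17 at P7 (7.66%, all genes 44.2%). PRC2ctrl had 14 (6.31%, all genes 46.7%) and PRC2cKO 18 (8.11%, all genes 41.3%). Elsewhere in the genome, the other 888 Olfr genes were marked at between 16.3% (PRC1ctrl P7) and 39.1% (WT E18.5), above the cluster in each of the 10 lists. The 231 Vmn1r genes, a family of vomeronasal receptors, were about as sparsely marked as the cluster, at between 2.60% (PRC1ctrl P7) and 14.3% (WT P1), and they were below it in WT P6 (7.36%), PRC1ctrl P7 and PRC1cKO P7 (6.49%).

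The members also stood below short genes taken as a whole. Of the 222 members, 194 were shorter than 2 kb, with a median length of 945 bp. Among all genes with windows of at most 7.83 kb, members and other Olfr genes included, 34.3% to 40.2% were marked by H3K27me3 in a list. Of the 210 members of that size, 0.476% to 6.67% were.

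H2AK119ub was found at 3 members in all (1.35%, all genes 81.5%), and at 1 to 3 per list. Vmn1r genes carried it at 0.433% to 3.90%. It marked 1 member at E18.5 (0.450%, all genes 74.3%), 3 at P1 (1.35%, all genes 65.9%), 1 at P6 (all genes 71.5%) and 2 at P7 (0.901%, all genes 56.0%). PRC2ctrl had 2 (all genes 64.5%) and PRC2cKO 1 (all genes 62.7%). No member's promoter had an H2AK119ub peak in any of the 6 lists, whereas 33.7% to 60.9% of all promoters did. H3K27me3 lay over between 1 (WT P7, Olfr1274) and 11 (PRC1cKO P7) of the 187 members' promoters, or 0.535% to 5.88%, and over 28.5% to 42.5% of all promoters.

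Over all 16 lists, 183 of 222 members (82.4%) carried neither mark in any list, compared with 47.5% of the other Olfr genes and 13.9% of all genes. H3K27me3 was called at least once at 39 members (17.6%, all genes 62.4%), in a single list at 19, in 2 to 5 lists at 9 and in 6 or more at 11 (4.95%, all genes 44.2%). Only Olfr1033, Olfr1565 and Olfr1274 had it in all 10 (1.35% of members, 30.0% of all genes). Longer windows meet a peak more easily, and the median window of these 3 genes was 9080 bp against 2940 bp for the members marked in no list.

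**Figure D2:**
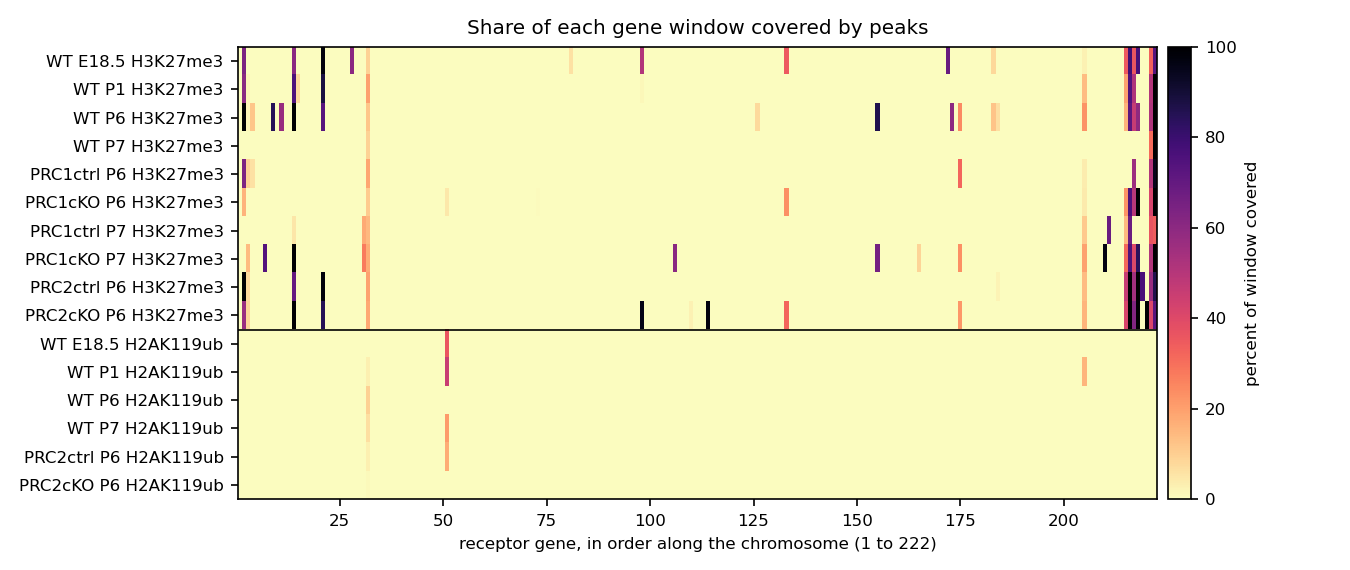
Percent of each gene window covered by peaks (colour) for the 222 members in order along the chromosome (x axis) in the 16 lists (rows, with H2AK119ub under the line). Most columns are empty, and the filled ones crowd at both ends of the H3K27me3 rows.

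Olfr1033, the longest of the 3 constant members (chr2:86020640-86044808), was the one gene with both marks in several lists. H3K27me3 covered 2.36 kb of its window at E18.5, 5.13 kb at P1, 3.17 kb at P6 and 2.45 kb at P7 in WT oocytes. It covered 4.84 kb and 2.79 kb in PRC1ctrl and PRC1cKO at P6, 3.88 kb and 4.51 kb at P7, and 5.02 kb and 4.80 kb in PRC2ctrl and PRC2cKO. H2AK119ub was not called there at E18.5 and then covered 0.769 kb at P1, 2.47 kb at P6 and 1.73 kb at P7, beside 0.763 kb in PRC2ctrl and 0.230 kb in PRC2cKO. Every H3K27me3 list had a peak at this gene, and its H2AK119ub was longest in WT P6 oocytes.

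Olfr1274 (chr2:90400640-90401674) had its whole window of 3.04 kb under H3K27me3 at P1, P6 and P7 in WT oocytes and 2.22 kb at E18.5. PRC1ctrl had 2.87 kb at P6 and 1.04 kb at P7, and PRC1cKO had 3.04 kb at both stages. PRC2ctrl had 2.62 kb and PRC2cKO 2.22 kb, so the lowest value of the 10 was that of PRC1ctrl at P7. Olfr1565 (chr2:90322222-90329298) was covered over 3.00 kb at E18.5, 4.58 kb at P1, 4.70 kb at P6 and 2.81 kb at P7 in WT oocytes. Its values were 4.61 and 3.82 kb in PRC1ctrl and PRC1cKO at P6, 3.31 and 4.64 kb at P7, and 5.18 and 3.74 kb in PRC2ctrl and PRC2cKO. The shortest coverage of Olfr1565 was at WT P7.

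Olfr1506 (chr2:90217395-90224471), the copy with the same promoter, differed from Olfr1565 at P7. It had no H3K27me3 peak in WT P7 or PRC1ctrl P7 oocytes, and 3.68 kb in PRC1cKO at P7. In the other 7 lists it was covered over 3.28 kb (WT E18.5) to 5.70 kb (PRC2cKO). At WT P7, the peak at Olfr1565 did not reach the promoter shared by the pair.

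Of the other recurrent members, Olfr988 and Olfr1009 lie near the start of the cluster. Olfr1009 was covered over 1.78, 2.23 and 2.94 kb at E18.5, P1 and P6 in WT oocytes and was free of the mark at P7. It was free of the mark in PRC1ctrl and PRC1cKO at P6, covered over 0.143 kb in PRC1ctrl and 2.94 kb in PRC1cKO at P7, and over 2.05 and 2.94 kb in PRC2ctrl and PRC2cKO. Olfr988 had 1.87, 1.78 and 2.93 kb at E18.5, P1 and P6 and none at P7 in WT oocytes, 1.87 and 0.461 kb in PRC1ctrl and PRC1cKO at P6, none in either at P7, and 2.93 and 1.66 kb in PRC2ctrl and PRC2cKO. Both genes were covered longest at P6 and not at all at P7 in WT oocytes. Olfr992 passed the call on short overlaps of at most 0.420 kb.

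Olfr1258, Olfr32, Olfr1270 and Olfr142 lie near the end. Olfr32 and Olfr1270 overlap and share peaks, so they are not separate observations. Olfr32 ranged from none (WT P7, PRC1ctrl P6) to 6.43 kb (PRC2ctrl), the longest value of any member in any list. Olfr1258 was marked in every H3K27me3 list but WT P7, at 0.291 kb (E18.5) to 2.41 kb (WT P6), and was the only member besides Olfr1033 with both marks in 1 stage, at P1, where H2AK119ub covered 1.67 kb. Olfr1055 was the reverse case: H2AK119ub covered 1.10 kb at E18.5, 1.39 kb at P1, none at P6, 0.638 kb at P7, 0.533 kb in PRC2ctrl and none in PRC2cKO, while H3K27me3 was called only in PRC1cKO at P6, over 0.138 kb.

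**Figure D3:**
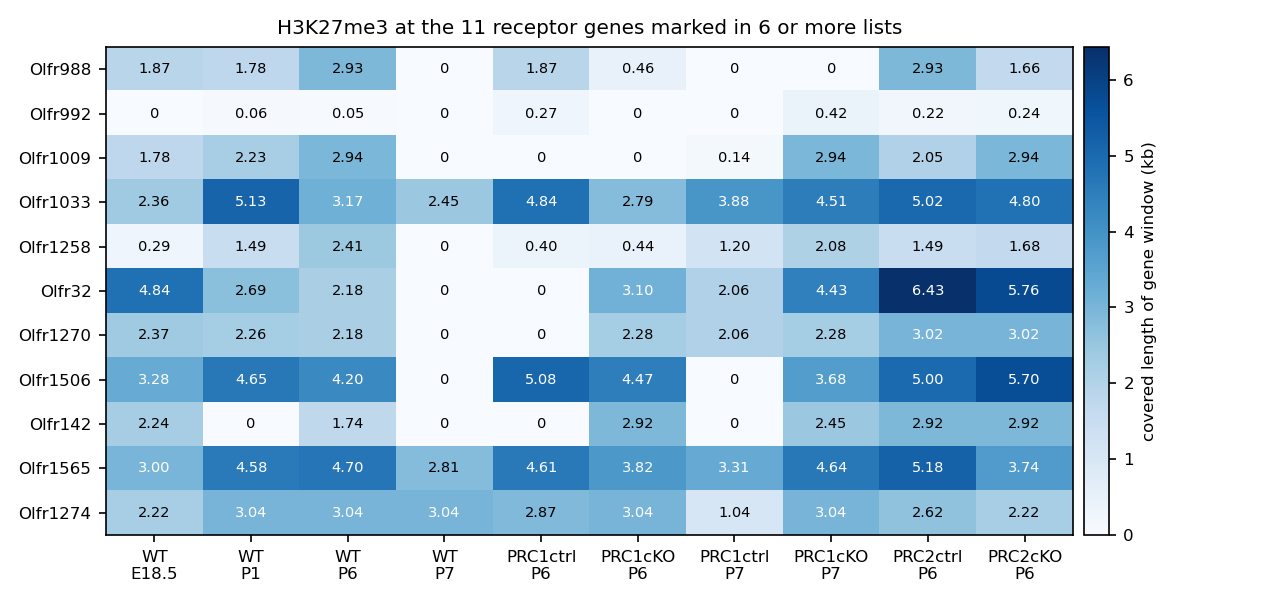
Covered length in kb of the gene window (colour and printed values) at the 11 members with H3K27me3 in 6 or more of the 10 lists (rows: genes in chromosome order, columns: lists). In WT P7 oocytes 8 of the 11 are at 0, and Olfr1033, Olfr1565 and Olfr1274 have no 0.

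H3K27me3 was denser at both ends of the cluster. In bins of 500 kb from the first member, the median coverage over the 10 lists was 13.1% in the first bin, 18.4% in the tenth and 13.4% in the last, which is 70.7 kb long. The bins between had medians of 1.59% to 5.93%. All 11 members marked in 6 or more lists lie in the first 2 or the last 2 bins, which hold 70 members, 23 of them marked at least once (32.9%, all genes 62.4%). The inner 7 bins hold 152 members, with 16 marked at least once (10.5%) and none in 6 or more lists. The second bin is counted with the ends here, though its median coverage of 5.74% is among those of the bins between. It holds 29 members, with 4 marked at least once and 1 (Olfr1033) in 6 or more lists. This division was made after the values were seen and was not tested.

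**Figure D4:**
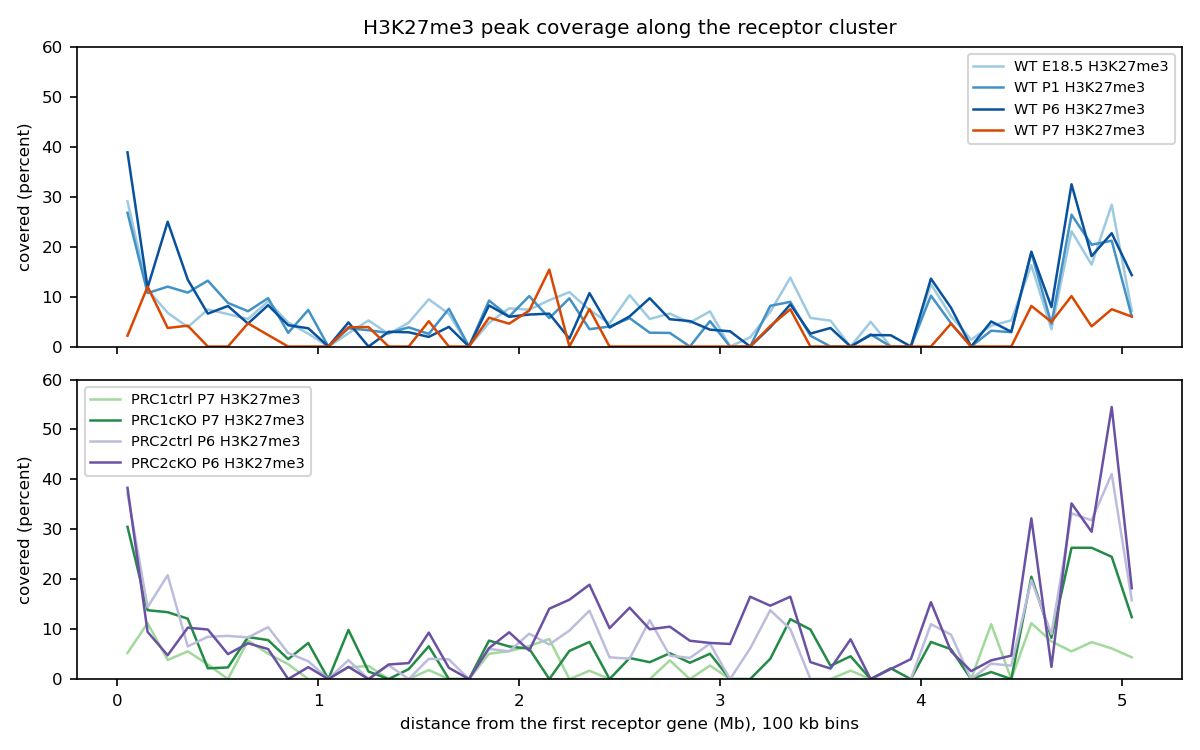
Percent of each 100 kb bin covered by H3K27me3 peaks (y axis) against distance from the first member in Mb (x axis), for the 4 WT stages (top) and for PRC1ctrl and PRC1cKO at P7 with PRC2ctrl and PRC2cKO at P6 (bottom). The highest bins lie at both ends, reaching 38.9% in WT P6 and 54.5% in PRC2cKO, while the WT P7 line reaches 15.4% and is at 0 in 28 of 51 bins.

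Long stretches of the cluster had no peaks. The longest stretch free of H3K27me3 in a list was 855 kb in WT P7 oocytes, touching 37 member windows, and 215 kb in PRC2cKO. For H2AK119ub it reached 2450 kb in WT P6 oocytes, touching 107 member windows. No list of either mark had a peak in 156 kb at chr2:86143481-86299860, which touches 12 members. Of the cluster's bases, 81.6% were in no H3K27me3 peak and 96.8% in no H2AK119ub peak of any list, and 0.450% were in H3K27me3 peaks of all 10.

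The sites common to all 10 H3K27me3 lists lay both at receptor genes and outside them. There were 10 such stretches of at least 200 bp, of 2.15 kb in the median and 3.68 kb at most, and 3 of them touched a member window (Olfr1033, Olfr1565, Olfr1274). Member windows make up 15.8% of the cluster, and 8.82% (WT P7) to 22.0% (WT P6) of a list's H3K27me3 peaks there touched one. Of the other 7 stretches, a pair lay in Fads2b, 1 in the pseudogene Nlk-ps1, 1 in the pseudogene Gm1826, and 3 in no annotated gene. Fads2b, named for its likeness to fatty acid desaturases, was covered over 6.75 kb (WT P7) to 10.9 kb (PRC1cKO P7). Pramel7 and Pramel6, members of the PRAME-like family known from early embryos and stem cells, had no H3K27me3 before P7. They were covered over 3.90 and 4.73 kb in WT P7 and over 3.50 and 4.50 kb in PRC1ctrl P7 oocytes, and were free of the mark in PRC1cKO at P7. These genes between the receptors thus had H3K27me3 in the 2 P7 lists in which the fewest cluster bases were covered.

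Receptor subfamilies, as named by the MOR numbers in the annotation, differed in how many members were marked. Neighbouring genes often belong to 1 subfamily, so position and subfamily cannot be told apart. MOR227 had H3K27me3 at 5 of 6 members at least once (Olfr32, Olfr1270, Olfr142, Olfr1271, Olfr1272), MOR175 at 4 of 6 and MOR203 at 3 of 6. Of all members 17.6% were marked at least once, and of all genes 62.4%. In MOR227, Olfr32 and Olfr1270 share peaks, and Olfr1271 and Olfr1272 were each marked in 1 list. In MOR175, Olfr996, Olfr1000 and Olfr154 were each marked in 1 list. The large MOR233 had 4 of 18 and MOR231 had 1 of 17. Of 18 subfamilies with at least 5 members, 6 had no marked member.

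Between E18.5 and P6 the marked members changed partly in WT oocytes. From E18.5 to P1, 6 of 17 lost H3K27me3 (7.41% of all marked genes did) and 2 gained it (5.83% of all unmarked genes did). Olfr142 went from 2.24 kb to none and Olfr1220 from 2.09 kb to none, while Olfr1033 went from 2.36 to 5.13 kb. From P1 to P6, 2 of 13 lost it (all genes 7.80%) and 10 gained it, which is 4.78% of the unmarked members and below the 10.1% of all unmarked genes. Olfr1200, Olfr1000 and Olfr1223 had no peak at P1 and 2.59, 2.49 and 2.26 kb at P6. With at least 50% of the window covered, the net changes of -4 and 8 over these steps were -2 and 4.

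From P6 to P7, 18 of the 21 marked members lost H3K27me3 in WT oocytes (85.7%, interval 63.7 to 97.0) and none gained it. Over all genes 12.3% of marked genes lost it and 15.1% of unmarked genes gained it, and among the other Olfr genes 51.5% of the marked lost it (interval 45.7 to 57.2). The loss was not particular to the cluster. Of 17 marked Vmn1r genes 14 lost it (82.4%, interval 56.6 to 96.2), and 7 unmarked ones gained it (3.27%). Olfr1506 went from 4.20 kb to none, and Olfr1009, Olfr988, Olfr1200, Olfr1000, Olfr1258, Olfr1223 and Olfr1270 from 2.18 to 2.94 kb to none. Cluster coverage went from 7.49% to 2.71%, while the genome's went from 19.8% to 23.0%. The lowest total signal of a listed peak differed as well, at 9546 in the P6 list and 14139 in the P7 list, and its part in the loss was not tested. Cutting the P7 list by total signal to the covered length of the P6 list gave a net change of -19 members. That cut removed peaks from the P7 list alone, so it could only deepen the loss. Cutting the P6 list to the number of peaks of the P7 list, which could only lessen the loss, gave -12. It left 15 marked members at P6 and 3 at P7.

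The same step looked different in the PRC1 groups. In PRC1ctrl, 5 of 9 marked members lost H3K27me3 (all genes 16.5%) and 5 gained it (all genes 11.1%), while cluster coverage went from 4.52% to 2.73%. In PRC1cKO, 4 of 12 lost it (all genes 14.1%) and 9 gained it (4.29% of unmarked members, all genes 9.34%), and coverage was 6.68% at P6 and 6.73% at P7. Coverage of the genome was 19.6% at P6 and 18.3% at P7 in PRC1ctrl, and 19.7% and 17.2% in PRC1cKO. The lowest listed signal was lower at P7 in both groups (10598 and 7218 in PRC1ctrl, 10307 and 5094 in PRC1cKO), and its part in these counts was not tested.

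**Figure D5:**
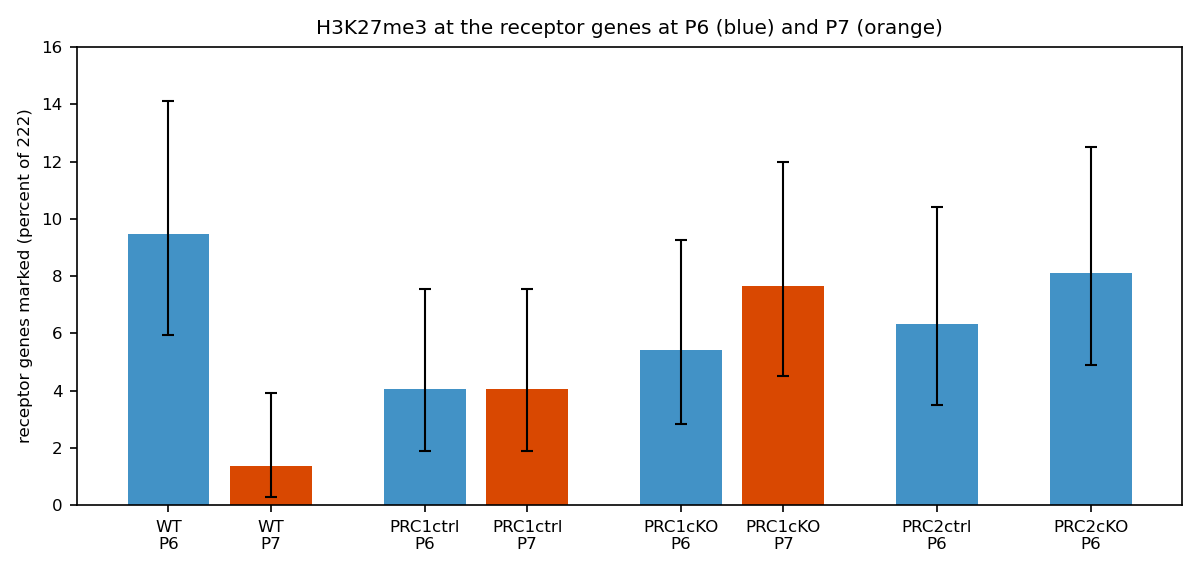
Percent of the 222 receptor genes marked by H3K27me3 (bars, with exact 95% intervals for counting error) in P6 non-growing (blue) and P7 growing (orange) oocytes of each genotype, 1 list a bar. WT goes from 9.46% to 1.35%, PRC1ctrl is at 4.05% at both stages, and PRC1cKO goes from 5.41% to 7.66%.

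PRC1cKO was then set against PRC1ctrl at each stage. At P6, 3 of 9 marked members lost H3K27me3 (all genes 9.52%) and 6 gained it (2.82% of unmarked members, all genes 7.26%). Olfr1223 had 2.97 kb in PRC1ctrl and none in PRC1cKO, and Olfr32 and Olfr142 had none in PRC1ctrl and 3.10 and 2.92 kb in PRC1cKO. The net change of 3 turned to -1 when at least 50% of the window had to be covered. At P7, 1 of 9 lost it (Olfr1264, 2.02 kb in PRC1ctrl, all genes 15.0%) and 9 gained it (4.23% of unmarked members, all genes 11.7%). The gained members included Olfr1506 (3.68 kb), Olfr1263 (2.81 kb), Olfr142 (2.45 kb), Olfr996 (2.27 kb) and Olfr1223 (2.16 kb). The other Olfr genes went the same way at P7, with 145 marked in PRC1ctrl and 250 in PRC1cKO, while all genes numbered 9716 and 9678.

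In PRC2cKO against PRC2ctrl at P6, H3K27me3 peaks were still called in the cluster, and the called peaks covered more of it. Coverage was 8.43% in PRC2ctrl and 10.2% in PRC2cKO, while the genome's was 20.7% and 15.9%. Of 14 marked members 2 lost the mark (14.3%, all genes 15.5%) and 6 gained it (2.88% of unmarked members, all genes 3.54%), shares near those of all genes. The net change of 4 was 1 with at least 50% of the window covered. It was 10 with the PRC2ctrl list cut to the covered length of the PRC2cKO list. That cut left 8 marked members in PRC2ctrl and all 18 in PRC2cKO. It trimmed the control alone, so it could only raise the net change. Olfr1271 had 2.23 kb in PRC2ctrl and none in PRC2cKO. Olfr1272, Olfr152 and Olfr1124 had none in PRC2ctrl and 2.93, 2.87 and 2.84 kb in PRC2cKO. Marked genes went from 287 to 250 of the 888 other Olfr genes, a net change of -37. They went from 20 to 24 of 231 Vmn1r genes and from 35 to 38 of 124 Vmn2r genes (vomeronasal receptors). Over all genes they went from 10214 to 9041. The sets differ in size, and of the marked genes 24.7% of other Olfr, 30.0% of Vmn1r and 14.3% of Vmn2r genes lost it. The differences between these families were not tested. The lowest listed signal was 10510 in PRC2ctrl and 6790 in PRC2cKO, and its part was not tested. The calling threshold and the scaling are unknown, so these peaks do not show how much of the mark remained. H2AK119ub covered 28.3 kb of the cluster in PRC2ctrl and 19.1 kb in PRC2cKO, and the members it touched were Olfr1033 (0.763 and 0.230 kb) and Olfr1055 (0.533 kb and none).

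Control lists of 1 stage differed from each other about as much as knockouts did from controls. At P6, 12 of 21 members marked in WT were unmarked in PRC1ctrl (57.1%, all genes 9.41%) and none was gained (all genes 5.63%). WT and PRC2ctrl differed by 8 lost (all genes 6.94%) and 1 gained (all genes 4.68%), and PRC1ctrl and PRC2ctrl by 2 lost (all genes 7.55%) and 7 gained (all genes 7.67%). At P7, none of the 3 members marked in WT was unmarked in PRC1ctrl (all genes 13.6%) and 6 were gained (all genes 3.07%). The net changes of 3 and 8 members in PRC1cKO and of 4 in PRC2cKO thus stand beside net changes of -12, -7, 5 and 6 between controls, which differ in genotype and are no replicates. Of the members, 9 had H3K27me3 in a knockout list and in no WT or control list (4.05%, all genes 1.56%): Olfr996, Olfr1055, Olfr1095, Olfr1133, Olfr1137, Olfr152, Olfr1213, Olfr1263 and Olfr1272. Most members were free of the mark in those lists to begin with, and as a share of the genes free of it there the counts were 4.69% of members and 3.99% of all genes. Of the members named, Olfr1095, Olfr1137 and Olfr1055 passed the call on short overlaps of 0.027, 0.073 and 0.138 kb.

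Genes that serve the receptors in sensory neurons carried the marks far more often than the receptors. Of 29 genes of olfactory signalling and receptor choice, 20 to 23 had H3K27me3 (69.0% to 79.3%, all genes 41.3% to 49.6%) and 26 to 29 had H2AK119ub (89.7% to 100%, all genes 56.0% to 74.3%) in a list. Their windows are long, with a median of 62.8 kb against 2.94 kb for the receptors and 19.2 kb for all genes, and the part of length in these counts was not tested. Those with H3K27me3 in all 10 lists included Gnal and Adcy3 (the olfactory G protein and adenylyl cyclase), Cnga2 (a subunit of the cyclic nucleotide-gated channel), Omp (olfactory marker protein), Rtp1 and Rtp2 (receptor transport proteins), and the transcription factors Lhx2 and Ebf1. From P6 to P7 in WT oocytes, 1 of 21 marked genes of this list lost H3K27me3 (all genes 12.3%). This was Kdm1a, a histone demethylase, from 0.349 kb, and Tshz1 gained it, over 1.80 kb. In PRC1cKO against PRC1ctrl, 1 of 23 lost it at P6 (all genes 9.52%). This was Ric8b, an exchange factor for the olfactory G protein, covered over only 0.065 kb in PRC1ctrl. At P7, 3 of 23 lost it (all genes 15.0%): Ric8b (2.03 kb in PRC1ctrl), Eif2ak3 (1.13 kb) and Tshz1 (0.956 kb). In PRC2cKO, 1 of 22 lost it (all genes 15.5%): Gng13, a G protein gamma subunit, with 3.26 kb in PRC2ctrl. None gained it in a knockout. Of 11 genes for writers and readers of heterochromatin, such as Ehmt2, Suv39h1 and Trim28, 0 or 1 had H3K27me3 (0 to 9.09%) and 2 to 7 had H2AK119ub (18.2% to 63.6%) in a list, with a median window of 21.2 kb.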

How the data were processed

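The 32 samples form 16 groups of 2, and the authors deposited 1 headerless peak list per group. Judged from the values, the deposited signal of column 4 is summed over each peak. It is the authors' own value and was used only to rank or filter peaks, or to give a list's lowest value. The submitters' processing notes name SAMtools, deepTools, Picard 3.0.0, Trim Galore 0.6.10 and Bowtie2, and the builds GRCm38, mm10 and dm6, with no roles. Drosophila S2 cells were added, for example 2000 to 1000 oocytes, with reads of 150 bp, per the labels. No source used here gives the peak caller, its threshold, scaling by S2 reads, the joining of both samples or the handling of reads with several matches.

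Peaks were set against RefSeq genes of GRCm38.p6 with Python 3.11.15, numpy 2.4.6, pandas 2.3.3 and scipy 1.17.1, and the overlap code was tested on simulated data. No test was run. A member lost a mark when it was marked in the first list and unmarked in the second, and gained it in the reverse case, and net change is gained minus lost. Members named were those with the longest covered length, or the longest rise or fall of it, and those marked in 6 or more lists. Members and lists were chosen with earlier results of these data known. Alternatives were the gene span alone, at least 50% of the window covered, the 75% of peaks with the highest total signal, and lists cut to equal peak number or equal covered length. Between a pair of lists, such a cut trimmed only the list with more peaks or the longer coverage, and the other stayed whole.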

Additional observations from a re-analysis of the deposited data

Results flagged for a closer look

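The net change of members with H3K27me3 from P6 to P7 had opposite signs in WT oocytes, where it was -18, and in PRC1cKO oocytes, where it was 5. In PRC1ctrl it was 0. Each group is 1 peak list per stage, and the difference between the groups was not tested.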

How the results depend on the processing

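No paired analysis was possible because each group has 1 peak list and no test was run, and for the same reason no replicate could be left out. The net change of marked members from P6 to P7 in WT H3K27me3 kept its sign in all 5 alternatives, from -19 to -10. The -19 came from equal covered length, which trimmed the P7 list alone and could only deepen the loss. The -10 came with at least 50% of the window covered. That 50% setting gave -2 for WT E18.5 to P1, 4 for P1 to P6, -1 for PRC1cKO at P6 (the sign turned from 3), 1 for PRC2cKO and 0 for all 4 H2AK119ub comparisons. The 75% of peaks with the highest total signal gave -2 for WT H3K27me3 E18.5 to P1, 4 for P1 to P6, 5 for PRC1cKO at P7, and for WT H2AK119ub 1 from E18.5 to P1 and 0 from P1 to P6. Equal peak number gave -1 for WT H3K27me3 E18.5 to P1, 5 for PRC1cKO at P6 and -1 for WT H2AK119ub P1 to P6. Equal covered length gave 10 for PRC2cKO H3K27me3, 2 for WT H2AK119ub P6 to P7 and 1 for PRC2cKO H2AK119ub (the sign turned from -1). The gene span alone gave 1 for PRC1cKO at P6, and for H2AK119ub 1, -1 and 0 in the WT steps and 0 for PRC2cKO. The causes were not tested.

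With all 16 lists cut to the smallest covered length by total signal, cluster coverage was between 0 and 2.92%. Read depth is unknown, so a gene without a peak is not shown to lack the mark.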

Other observations

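Among the genes of vomeronasal receptors, which detect pheromones, many marked ones also lost H3K27me3 from P6 to P7 in WT oocytes, and some unmarked ones gained it. Of 17 marked Vmn1r genes 14 lost it (82.4%, interval 56.6 to 96.2), and 7 unmarked ones gained it (3.27%). Of 37 marked Vmn2r genes 20 lost it (54.1%, interval 36.9 to 70.5), and 4 unmarked ones gained it (4.60%). Among 60 marked class I Olfr genes of chromosome 7, 37 lost it (61.7%, interval 48.2 to 73.9), and 2 unmarked ones gained it (3.03%). Over all genes 12.3% of marked genes lost it and 15.1% of unmarked genes gained it. These families are clustered, so their genes are not independent, and the differences between them were not tested.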
